A study of Mus musculus with 4 samples.

Results

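The Hippo pathway was followed here through 10 genes: the kinases Stk3, Stk4, Lats1 and Lats2, the scaffold Sav1, the coactivators Yap1 and Wwtr1, and the YAP target genes Ctgf, Cyr61 and Ankrd1. They were chosen by name, as the core kinases, their output proteins and the usual target genes, because ASPP1, the protein that one of the mouse lines lacks, is known to act on LATS kinases and YAP. Every probe that the array files name for one of these genes was taken, which gave 13 probes of 55675, and 10 genes of the 34786 genes and transcripts on the array. For 9 of the 10 genes at least 1 probe was well above background on at least 1 array, and for 6 of them (Yap1, Lats1, Lats2, Stk3, Stk4 and Sav1) on all 4 arrays.

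The samples were LSK cells, that is, lineage- Sca-1+ cKit+ bone marrow cells, the fraction that holds blood stem and multipotent progenitor cells. They came from male C57BL/6 mice 12 weeks old, and each of 4 genotypes was measured on 1 single-colour Agilent array with RNA pooled from 3 mice. The series addresses what loss of Aspp1 (gene symbol Ppp1r13b), alone or with loss of the tumour suppressor p53 (Trp53), does in these cells. Probe positions are those of the mouse mm9 build in the array files.

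WT mice were labelled wild type. Aspp1-/- mice were labelled with that genotype alone and with no Cre. The array called p53-/- came from Mx1-Cre(+)p53flox/flox mice, in which an interferon-inducible promoter drives the recombinase that deletes p53, and the array called Aspp1-/-p53-/- from Mx1-Cre(+)Aspp1-/-p53flox/flox mice. All 4 groups, WT included, received pIpC, an RNA mimic that induces interferon and so the Mx1 promoter, in 5 injections from 8 weeks of age, and cells were sorted 4 weeks later. The design text gives 400 µg of pIpC for all mice, while the labels read 400 µg for WT, 401 µg for Aspp1-/-, 402 µg for p53-/- and 403 µg for Aspp1-/-p53-/-. WT and Aspp1-/- lay in row 1 of the slide and the arrays without p53 in row 2, so p53 loss, the Mx1-Cre allele and the slide row cannot be told apart. With 1 array per genotype no comparison has a replicate check, no p-value was computed, and a difference between arrays can be one between pools, hybridisations or genotypes.

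In the Hippo pathway the kinases MST2 and MST1 (encoded by Stk3 and Stk4), with the scaffold SAV1, activate the kinases LATS1 and LATS2. These phosphorylate YAP and its relative TAZ (Wwtr1), which are then held in the cytoplasm or degraded. YAP and TAZ that reach the nucleus bind TEAD transcription factors and switch on genes such as Ctgf, Cyr61 and Ankrd1. Regulation runs largely through protein phosphorylation, which an RNA array does not measure.

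The deposited processed signal was divided by the 75th percentile of its array, which was 571 on WT, 599 on Aspp1-/-, 580 on p53-/- and 537 on Aspp1-/-p53-/-, and compared on the log2 scale. Between 50.3% and 53.3% of probes were well above background, and no gene spot was saturated. The targeted genes followed the labels. Ppp1r13b read 13182 on WT, 2247 on Aspp1-/-, 12759 on p53-/- and 2060 on Aspp1-/-p53-/-, and Trp53 read 730 on WT, 820 on Aspp1-/-, 164 on p53-/- and 169 on Aspp1-/-p53-/-. All 10 LSK progenitor markers, among them Kit and Ly6a (Sca-1), were well above background on every array, with a summed scaled signal of 380 to 391. Cd34, the brightest of them, weighed most in that sum. Single markers lay between −0.24 and 0.23 from WT on the log2 scale. In RNA from sorted populations, fewer cells of a type and less RNA per cell cannot be told apart.

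The kinase module was measured at nearly the same level on all 4 arrays. Stk3, the gene of MST2, was read by a probe at chr15:34805255-34805314 on the minus strand. Its signal was 861 on WT, 955 on Aspp1-/-, 787 on p53-/- and 759 on Aspp1-/-p53-/-. Relative to WT, after scaling, these were log2 differences of 0.08, −0.15 and −0.09, each smaller than the scanner's own error of 0.20 for a difference. That error, from the error model of the scanner software, covers a spot's measurement on each array and not the spread between mice.

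Stk4, the gene of MST1, had 3 probes on the plus strand of chromosome 2. The probe near the end of transcript NM_021420 (chr2:163980867-163980926, starting at base 4798 of the transcript) read 6144 on WT, 5877 on Aspp1-/-, 5904 on p53-/- and 5149 on Aspp1-/-p53-/-. Its differences from WT were −0.13, −0.08 and −0.17, with an error of 0.20. A probe in the front part of the same transcript (chr2:163914611-163914670, starting at base 429) went the other way. It read 281 on WT, 368 on Aspp1-/-, 356 on p53-/- and 337 on Aspp1-/-p53-/-, so that WT was the lowest of the 4 arrays. The differences from WT were 0.32, 0.32 and 0.35 with an error of 0.21, larger than that error though far from 2-fold. These 2 probes are 60-base oligonucleotides for 1 gene and disagree in direction, so the sign of the Stk4 difference depends on which is used. The front probe, given because it is the one that sets WT apart, had the following sequence in the array files, written 5′ to 3′ with no part marked.
Stk4 probe at base 429: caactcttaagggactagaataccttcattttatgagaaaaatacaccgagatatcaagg
The third probe, for transcript AK030098, was not well above background on any array and gave signals of 5.46, 16.4, 22.5 and 24.1 in the order WT, Aspp1-/-, p53-/- and Aspp1-/-p53-/-.

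Sav1, the scaffold that joins MST to LATS, was the steadiest of the genes measured on all arrays. The probe at chr12:71066122-71066181 (minus strand) read 3810 on WT, 4091 on Aspp1-/-, 3839 on p53-/- and 3587 on Aspp1-/-p53-/-. After scaling, its 4 values spanned a range of only 0.05 on the log2 scale.

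Lats1 and Lats2 encode the kinases that phosphorylate YAP and TAZ, and LATS is the step on which ASPP1 is known to act. Lats1, read at chr10:7432671-7432730 on the plus strand, gave 143 on WT, 162 on Aspp1-/-, 146 on p53-/- and 129 on Aspp1-/-p53-/-. Against WT the Lats1 differences were 0.11, 0.01 and −0.06. Lats2 transcript NM_015771 (chr14:58308807-58308866, minus strand) gave 795 on WT, 820 on Aspp1-/-, 835 on p53-/- and 648 on Aspp1-/-p53-/-. The array without both genes was the lowest, at −0.21 against WT and −0.25 against p53-/-, with an error of 0.20 for each. The probe of Lats2 transcript NM_153382 (chr14:58341225-58341284, minus strand) gave 83.0 on WT, 74.4 on Aspp1-/-, 67.8 on p53-/- and 63.3 on Aspp1-/-p53-/-. Here WT was the highest, and the differences from it were −0.23, −0.32 and −0.30 with errors of 0.24 to 0.25. After scaling, p53-/- and Aspp1-/-p53-/- lay within 0.01 of each other for this probe. The Lats2 probes both lay below WT on Aspp1-/-p53-/-, while they differed in sign for p53-/- against WT, 0.05 and −0.32.

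**Figure D1:**
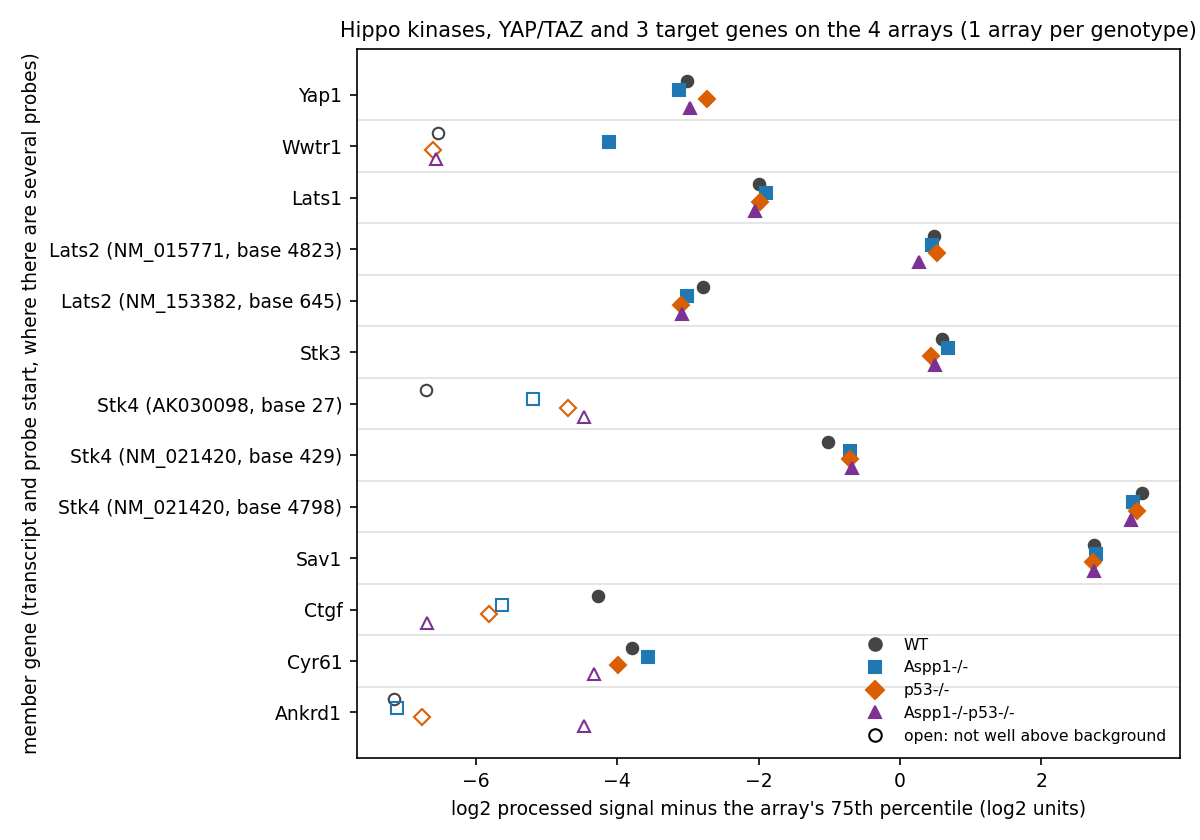
Scaled level of each of the 13 probes on the 4 arrays, as log2 processed signal less the array's 75th percentile (horizontal axis), with 1 row per probe and 1 symbol per genotype; open symbols were not well above background. The 8 probes of Yap1, Lats1, Lats2, Stk3, Stk4 and Sav1 that were above background on all arrays keep their 4 symbols close together, while Wwtr1 and Ctgf each have 1 filled symbol and Ankrd1 and 1 Stk4 probe have none.

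Yap1, the coactivator that LATS restrains, was highest without p53 alone. Its probe (chr9:7932025-7932084, minus strand) read 71.0 on WT, 68.4 on Aspp1-/-, 87.0 on p53-/- and 68.8 on Aspp1-/-p53-/-. The difference of p53-/- from WT was 0.27 with a scanner error of 0.24, and the other 2 genotypes lay at −0.12 and 0.04 from WT. That p53-/- difference depended on the setting. It was 0.14 with median scaling, 0.14 with another background correction (normexp) and 0.16 with quantile normalisation, each smaller than 0.24. Aspp1-/-p53-/- was at −0.23 against p53-/-, within its error of 0.25. Yap1 had the widest range of the 6 genes above background on all arrays, 0.39. The 3 genes whose 4 values lay nearest to those of Yap1, of 13420 RefSeq genes above background on all 4 arrays and each centred on its mean, were Fam229b, 4930481B07Rik and Extl1, at distances of 0.02, 0.03 and 0.04 on the log2 scale.

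Wwtr1, which encodes TAZ, could be told from background only on the Aspp1-/- array. The probe (chr3:57259999-57260058, minus strand) gave 34.6 there, against 6.12 on WT, 5.98 on p53-/- and 5.70 on Aspp1-/-p53-/-, which were not well above background. Since those 3 readings have no measured level, the difference is a bound between the bright value and the lowest signal well above background on the dim array, 16.9 on WT, 9.75 on Aspp1-/-, 23.4 on p53-/- and 22.8 on Aspp1-/-p53-/-. On this basis Aspp1-/- was higher than WT by 0.97 or more, just short of the 2-fold rule (a log2 difference of 1), and Aspp1-/-p53-/- was lower than Aspp1-/- by 0.44 or more. The size of the Wwtr1 difference from WT depended on the setting: it was 0.31 with another background correction (normexp), 0.44 with the highest of the 4 floors used for all arrays, and 2.44 in the authors' deposited table, which sets no such floor. No Wwtr1 difference was given between the 3 dim arrays. Of 22777 genes above background on any array, 484 (2.12%) were so on the Aspp1-/- array alone, so a single bright reading of this kind was not rare.

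The 3 target genes were read near background, at a signal of 50.5 or below on every array. Ctgf (also called Ccn2), a secreted matrix protein and the most used readout of YAP, was well above background on the WT array alone. Its probe (chr10:24318281-24318340, plus strand) read 29.4 on WT, and 12.1 on Aspp1-/-, 10.3 on p53-/- and 5.20 on Aspp1-/-p53-/-, none of which were well above background. WT was thus the only array with a measured level, and the other 3 readings have no order. Against WT, Ctgf was lower by 1.34 on Aspp1-/- (2.54-fold, error 0.57), where the bound is the probe's own dim value and not a strict limit. On p53-/- the bound was 0.35 or more and on Aspp1-/-p53-/- 0.28 or more, and their smaller size comes from the higher lowest signal of those arrays, not from the readings.

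The Aspp1-/- bound was the only member difference past 2-fold, and it did not hold in every setting. It was −0.37 with normexp and −0.28 with the highest floor used for all arrays. There were 613 genes (2.69% of the 22777) above background on WT alone. In the authors' deposited table, which keeps dim readings as values, Ctgf was at −1.34 on Aspp1-/-, −1.55 on p53-/- and −2.40 on Aspp1-/-p53-/- relative to WT.

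Cyr61 (also called Ccn1), the matrix protein next of kin to Ctgf, was above background on 3 arrays. The probe (chr3:145310187-145310246, minus strand) read 41.1 on WT, 50.5 on Aspp1-/-, 36.5 on p53-/- and 26.6 on Aspp1-/-p53-/-, the last not well above background. The differences from WT were 0.23 for Aspp1-/- (error 0.30) and −0.20 for p53-/- (error 0.36). Aspp1-/-p53-/- was below WT by 0.54 (error 0.42), below p53-/- by 0.34 (error 0.46) and below Aspp1-/- by 0.77 (error 0.41), none past 2-fold. These 3 values rest on the probe's own dim reading and are not strict limits, and with normexp they were −0.041, −0.018 and −0.12. Aspp1-/- was therefore the highest array for Cyr61 and a dim one for Ctgf.

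Ankrd1, a muscle ankyrin-repeat protein and YAP target, was not well above background anywhere. Its probe (chr19:36186809-36186868, minus strand) gave 4.00 on WT, 4.31 on Aspp1-/-, 5.34 on p53-/- and 24.3 on Aspp1-/-p53-/-. No fold is given for Ankrd1, since neither side of any comparison was well above background.

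Promoters in the RefSeq table (GRCm38.p6) were searched for GGAATG, the core of the site that TEAD factors bind, on both strands (CATTCC on the other), in the 250 bases before the start of transcription. An entry was found for 8 of the 10 genes, all but Stk3 and Ctgf. The motif was in 5 of these 8: Cyr61, Ankrd1, Yap1, Wwtr1 and Sav1. Lats1, Lats2 and Stk4 had no match in this window. Among the table's promoters, 32851 in all, a match was present in 12.64%, and 2 or more matches in 1.023%. These shares count promoters, while 5 of 8 counts genes with a match in any of their promoters, 10 for the 8 genes. A match is a description of the sequence and not a measured binding site. The promoters of both target genes with an entry are given because their TEAD-dependent control is well known, 5′ to 3′ on the gene's strand, with the motif in capitals. Cyr61 lies at chr3:145649986-145650235 and Ankrd1 at chr19:36119845-36120094, both on the minus strand.
Cyr61 promoter: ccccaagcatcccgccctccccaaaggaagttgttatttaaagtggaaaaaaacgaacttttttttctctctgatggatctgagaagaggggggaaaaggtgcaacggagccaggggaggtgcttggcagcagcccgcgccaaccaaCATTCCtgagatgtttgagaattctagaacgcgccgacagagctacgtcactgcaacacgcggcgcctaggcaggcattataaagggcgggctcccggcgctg
Ankrd1 promoter: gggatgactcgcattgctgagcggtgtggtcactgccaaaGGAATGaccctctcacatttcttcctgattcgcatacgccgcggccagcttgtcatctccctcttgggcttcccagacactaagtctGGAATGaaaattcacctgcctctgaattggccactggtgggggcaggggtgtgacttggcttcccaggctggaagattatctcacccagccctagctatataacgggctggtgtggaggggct
The Cyr61 match begins 103 bases before the start and reads on the opposite strand. The matches of Ankrd1 begin 210 and 123 bases before the start.

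Counted over the genes that could be compared, 1 of 9 members was past 2-fold in Aspp1-/- against WT (Ctgf, lower), where 3.5% of all 21532 genes compared were past it in either direction and 2.17% were lower. None of 8 was past it in p53-/- against WT (background 5.21%), none of 8 in Aspp1-/-p53-/- against WT (6.02%), none of 7 in Aspp1-/-p53-/- against p53-/- (5.79%) and none of 8 in Aspp1-/-p53-/- against Aspp1-/- (5.71%). Measured on both arrays, none of the members was past 2-fold in any comparison, where the percentages of all genes were 0.834, 1.45, 2.49, 1.65 and 1.75 in the same order. With so few genes and such backgrounds, a count of 0 or 1 is near what all genes gave. Ctgf and Wwtr1 entered these counts only through the array on which they were bright.

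Among differences measured on both arrays, the members covered 42 values from 9 probes of 7 genes, running from −0.32 to 0.35. Of these, 34 were no larger than the scanner error and 8 were larger, those of Lats2, of the front Stk4 probe and of Yap1. For each of the 8, between 12.2% and 34.2% of all genes measured on both arrays differed by as much or more. The values of the front Stk4 probe all share its WT reading. The share of all genes beyond their own scanner error was not computed. The 6 genes above background on all arrays had a median range over the 4 arrays of 0.20, beside 0.21 for all 18993 such genes, of which 3.55% had a range of 1 or more. All genes measured on both arrays had a standard deviation of 0.26 in Aspp1-/- against WT, 0.30 in p53-/- against WT, 0.37 in Aspp1-/-p53-/- against WT, 0.30 in Aspp1-/-p53-/- against p53-/- and 0.32 in Aspp1-/-p53-/- against Aspp1-/-. The comparisons share arrays and are not independent of each other.

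**Figure D2:**
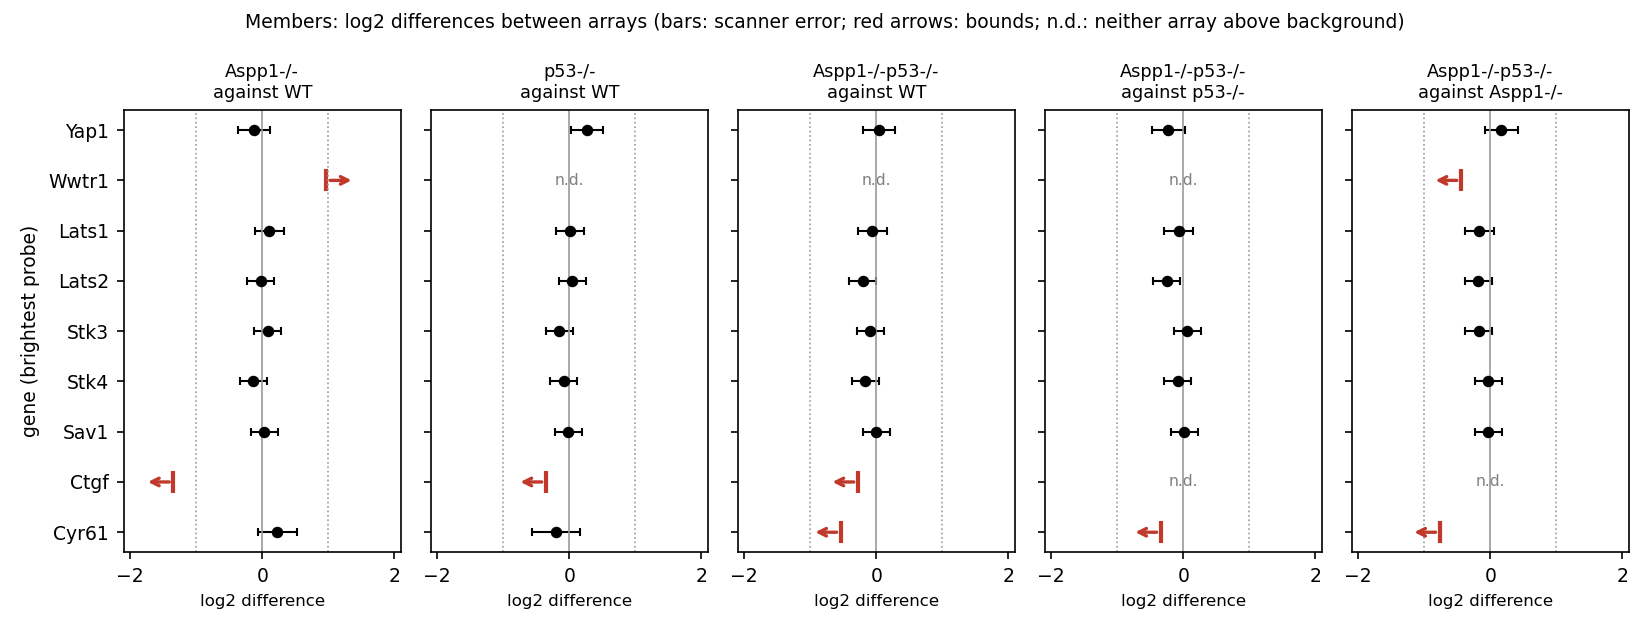
Log2 differences of 9 member genes, each by its brightest probe, in the 5 comparisons of 2 arrays; bars are the scanner error of a difference, red arrows are bounds that point away from 0, dotted lines mark 2-fold, and n.d. means that neither array was well above background. Points of the kinases, Sav1 and Yap1 lie between −0.25 and 0.27, and the Ctgf arrow in Aspp1-/- against WT, at −1.34, is the only value beyond a dotted line.

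Loss of both genes was set against the sum of the single losses for the 8 probes above background on all arrays. The departure from the sum ran from −0.29 for the front Stk4 probe to 0.24 for Lats2 transcript NM_153382, and was −0.10 for Yap1, −0.18 for Lats1, −0.23 for Lats2 transcript NM_015771, −0.02 for Stk3, 0.05 for the end Stk4 probe and −0.02 for Sav1. The scanner error of such a departure was 0.29 to 0.36, and no probe exceeded its own. The difference made by Aspp1 loss with p53 and without it was 0.11 and −0.07 for Lats1, and −0.12 and −0.23 for Yap1.

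The wider pathway also had medians close to 0. Of 62 further Hippo components, 52 were above background on at least 1 array and 45 on all 4. The 10 that were on none were Amotl1, Tead4, Vgll2, Vgll3, Fat1, Fat4, Dchs1, Dchs2, Crb2 and Llgl1. The median difference of those compared was 0.03 in Aspp1-/- against WT, 0.03 in p53-/- against WT, 0.06 in Aspp1-/-p53-/- against WT, 0.00 in Aspp1-/-p53-/- against p53-/- and 0.02 in Aspp1-/-p53-/- against Aspp1-/-. For all genes the medians were 0.00, 0.01, 0.01, −0.01 and 0.00 in the same order. In that order too, 28 of 49, 29 of 48, 30 of 48, 25 of 50 and 26 of 49 components lay above 0.

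By role, the adaptors of LATS, Mob1a and Mob1b, stayed between −0.12 and 0.20 over all comparisons. The 7 MAP4K kinases, which can activate LATS in place of MST, were all above background on every array and ran from −0.37 (Map4k5, Aspp1-/-p53-/- against WT) to 0.26 (Tnik, Aspp1-/-p53-/- against p53-/-). The 3 TAO kinases, which activate MST, ran from −0.11 to 0.34. Among the NDR kinases, relatives of LATS, Stk38l was the most variable, at −0.37 in p53-/- against WT, while Aspp1-/-p53-/- lay 0.53 above p53-/-. It read 317 on WT, 326 on Aspp1-/-, 250 on p53-/- and 334 on Aspp1-/-p53-/-, so that the p53-/- array alone was low.

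The TEAD factors, through which YAP and TAZ reach DNA, were present as Tead1, Tead2 and Tead3. Tead2 read 1277 on WT, 1469 on Aspp1-/-, 1432 on p53-/- and 1292 on Aspp1-/-p53-/-, and its differences from WT were 0.13, 0.14 and 0.10. Tead1 read 51.4 on WT, 50.2 on Aspp1-/-, 65.1 on p53-/- and 51.1 on Aspp1-/-p53-/-, highest without p53 alone, as was Yap1. The Tead1 difference of p53-/- from WT was 0.32 with a scanner error of 0.29. The other Tead1 probes were not well above background on any array. Vgll4, which competes with YAP for TEAD, lay at −0.21, −0.16 and −0.21 from WT on Aspp1-/-, p53-/- and Aspp1-/-p53-/-.

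Among proteins that hold YAP back, Ptpn14, a phosphatase that binds YAP and is itself in target signatures of YAP, had the largest measured difference of the list. It read 75.04 on WT, 74.7 on Aspp1-/-, 70.4 on p53-/- and 47.3 on Aspp1-/-p53-/-, which was −0.58 against WT, −0.46 against p53-/- and −0.50 against Aspp1-/-. Amotl2, an angiomotin relative with the same dual position, read 110 on WT, 103 on Aspp1-/-, 92.0 on p53-/- and 79.2 on Aspp1-/-p53-/-, at −0.39 against WT for the last. Both were lowest on the array without both genes, and neither passed 2-fold. Ctnna1, alpha-catenin, lay at 0.21, 0.26 and 0.39 above WT on Aspp1-/-, p53-/- and Aspp1-/-p53-/-.

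All 228 differences of other components measured on both arrays, from 46 genes, were under 2-fold. Past 2-fold with bounds were 1 of 49 components in Aspp1-/- against WT, 1 of 48 in p53-/- against WT, 2 of 48 in Aspp1-/-p53-/- against WT, 2 of 50 in Aspp1-/-p53-/- against p53-/- and 3 of 49 in Aspp1-/-p53-/- against Aspp1-/-, near the all-gene percentages above. Each belonged to a gene bright on 1 array alone. Vgll1, a TEAD cofactor, read 117 on Aspp1-/- and between 4.07 and 5.64 on the others, 2.72 or more above WT, and 2 further Vgll1 probes were not above background on any array. Fat3, an atypical cadherin, read 90.04 on p53-/- alone, 2.39 or more above WT. Crb1, a polarity protein, and Frmd6, a FERM-domain activator of the pathway, read 51.1 and 41.4 on Aspp1-/-p53-/- alone, 1.69 or more and 1.38 or more above WT. A second Fat3 probe and 2 further Crb1 probes were not well above background on any array, and Frmd6 had 1 probe. With normexp correction only the Vgll1 bound against WT stayed past 2-fold, at 1.25.

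**Figure D3:**
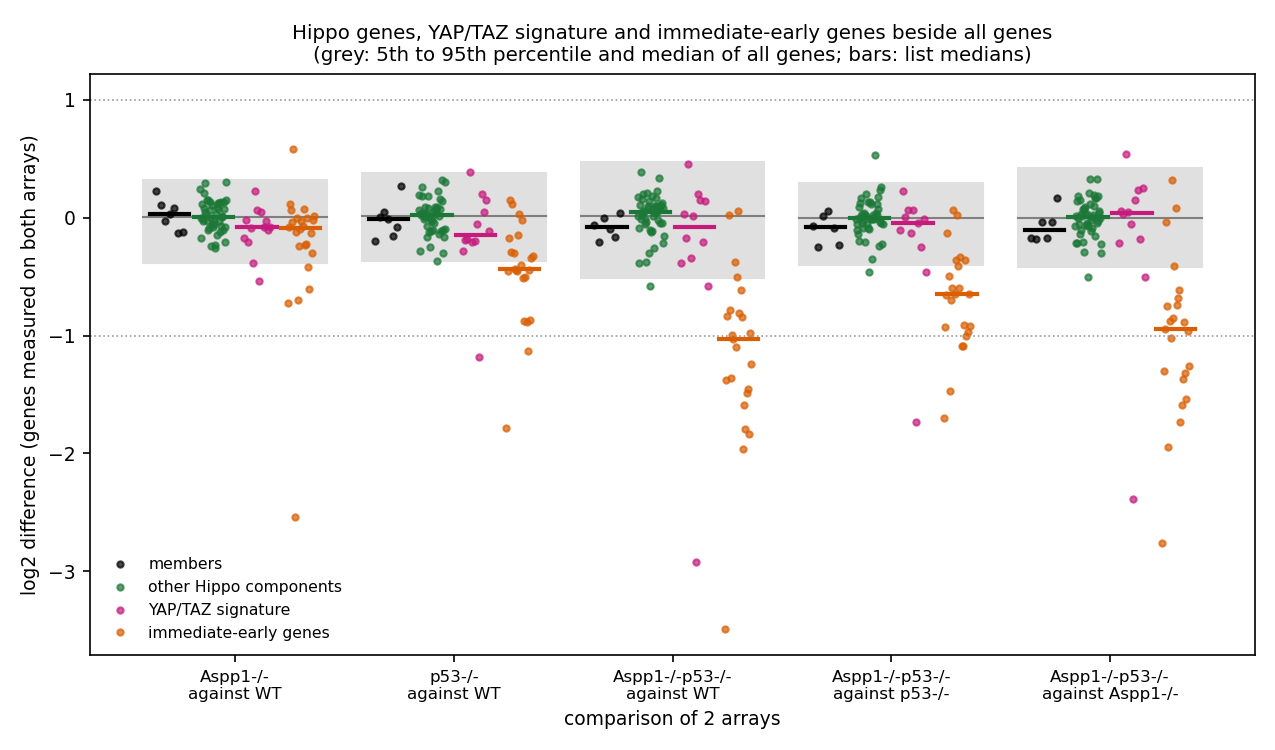
Log2 differences measured on both arrays in the 5 comparisons, for members (black), other Hippo components (green), a YAP/TAZ target signature (pink) and immediate-early genes (orange), each point a gene and each short bar a list median, over the 5th to 95th percentile and median of all genes (grey). The medians of members and Hippo components lie between −0.10 and 0.05, the single low pink point is F3 (−2.92 in Aspp1-/-p53-/- against WT), and the orange bars drop to −1.03 in that comparison.

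A signature of 22 genes that YAP and TAZ are known to switch on in other cell types, which includes Ctgf, Cyr61, Ankrd1 and Lats2, was measured beside the members. Above background on at least 1 array were 15 of them and on all 4 arrays 11. Igfbp3, Myof, Foxf2, Ccdc80, Tgfb2, Rbms3 and Ankrd1 were on none. The signature's medians were −0.08 in Aspp1-/- against WT, −0.18 in p53-/- against WT, −0.19 in Aspp1-/-p53-/- against WT, −0.08 in Aspp1-/-p53-/- against p53-/- and 0.01 in Aspp1-/-p53-/- against Aspp1-/-. Genes below 0 numbered 11 of 15, 10 of 15, 8 of 14, 9 of 14 and 7 of 14 in that order, while of all genes 49.0%, 46.3%, 48.8%, 51.7% and 51.3% were below 0. In Aspp1-/- against WT, Ctgf alone of the signature passed 2-fold, and in each of the other 4 comparisons F3 alone.

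F3, tissue factor, the starter of blood coagulation, read 288 on WT, 209 on Aspp1-/-, 129 on p53-/- and 35.7 on Aspp1-/-p53-/-, highest on WT and lowest without both genes. It fell by 2.92 in Aspp1-/-p53-/- against WT (scanner error 0.29), by 1.19 in p53-/- against WT (0.21), by 1.74 in Aspp1-/-p53-/- against p53-/- (0.29) and by 2.39 in Aspp1-/-p53-/- against Aspp1-/- (0.29). Aspp1-/- against WT was −0.53. A second F3 probe was not above background on any array. With normexp correction the p53-/- difference was −0.86 and that of Aspp1-/-p53-/- from p53-/- was −0.84, no longer 2-fold. The signature was divided: in Aspp1-/-p53-/- against WT, 8 of 14 genes, F3 included, lay below 0 and 6 above. Of those below, Ptpn14 was at −0.58, Amotl2 at −0.39 and Crim1 at −0.34. Axl, a receptor tyrosine kinase, read 164 on WT, 162 on Aspp1-/-, 218 on p53-/- and 212 on Aspp1-/-p53-/-. The last pair lay 0.39 and 0.46 above WT for Axl. Gadd45a, Nuak2 and Dock5 stayed within 0.25 of 0 in every comparison.

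**Figure D4:**
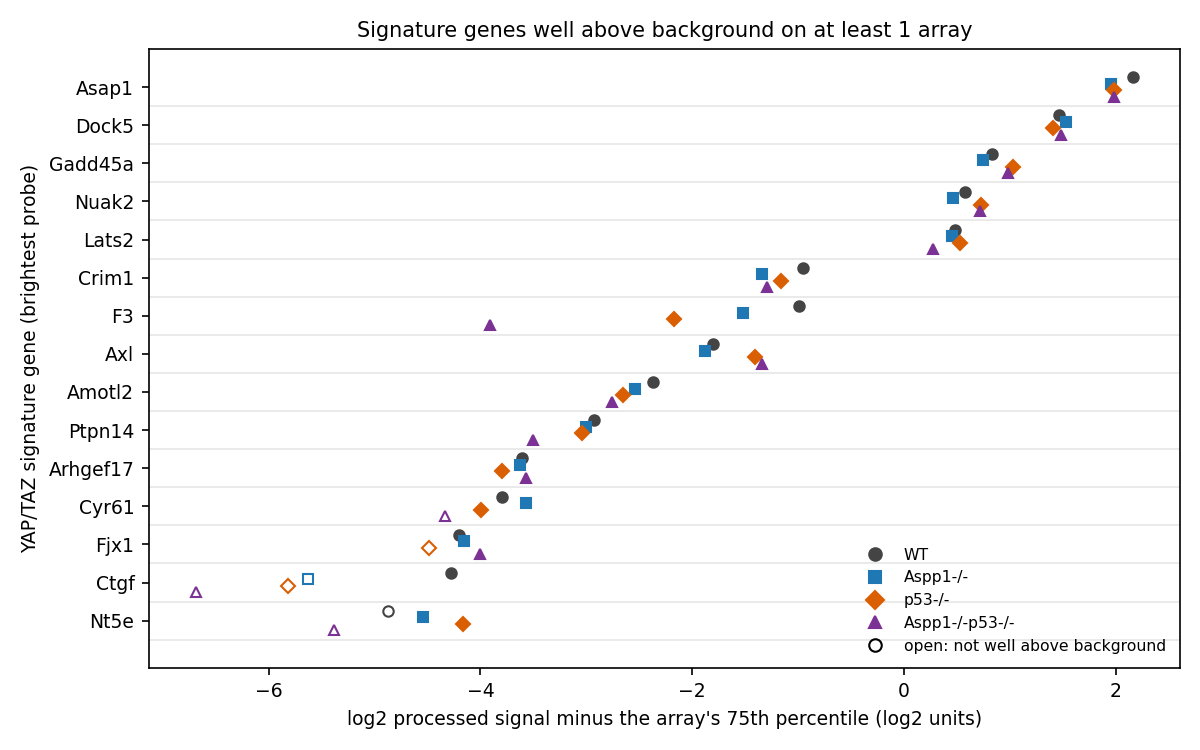
Scaled levels of the 15 signature genes that were well above background on at least 1 array, as log2 processed signal less the array's 75th percentile, with 1 symbol per genotype and open symbols where not well above background. For most genes the 4 symbols lie together; F3 spreads over 2.92 log2 units from WT down to Aspp1-/-p53-/-, and Ctgf has only its WT symbol filled.

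F3, Ctgf and Cyr61 also answer quickly to stress and serum, so 24 immediate-early and handling genes were set beside them. All 24 were above background on at least 1 array. Their medians were −0.08 in Aspp1-/- against WT, −0.44 in p53-/- against WT, −1.06 in Aspp1-/-p53-/- against WT, −0.64 in Aspp1-/-p53-/- against p53-/- and −0.91 in Aspp1-/-p53-/- against Aspp1-/-. Lower by 2-fold or more were 1, 3, 13, 5 and 10 of them in that order, where 2.17%, 1.55%, 2.48%, 3.3% and 1.98% of all genes were lower, and none of the 24 was higher. Atf3, a stress-induced transcription factor, read 16562 on WT, 10504 on Aspp1-/-, 4890 on p53-/- and 1390 on Aspp1-/-p53-/-, the same order as F3, and fell by 3.49 in Aspp1-/-p53-/- against WT. Klf2 fell by 1.96 in that comparison, while Fos was at −0.99 and Egr1 at −0.78, short of the rule. The part of this in the values of F3, Ctgf and Cyr61 was not tested.

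Stromal and endothelial cells express Ctgf and Cyr61 strongly, and megakaryocytes and other blood cells could pass a sort in small numbers. Of 18 stromal and endothelial markers, 12 were above background on at least 1 array, with a summed scaled signal of 16.5 on WT, 15.0 on Aspp1-/-, 15.1 on p53-/- and 14.1 on Aspp1-/-p53-/-. Kitl, Pdgfra, Col1a1, Col3a1, Lum and Cdh5 were not well above background on any array. Below WT lay 8 of the 12 markers compared on Aspp1-/-, 8 on p53-/- and 9 on Aspp1-/-p53-/-, and the rest lay above it. Dcn, a matrix proteoglycan, was like Ctgf above background on WT alone, and lower by 2.39 or more on Aspp1-/-, 1.08 or more on p53-/- and 1.003 or more on Aspp1-/-p53-/-. Cxcl12, a niche chemokine, was at −0.77, −1.35 and −2.20 from WT in the same order. Vcam1, an adhesion molecule, was at −0.78, −0.68 and −2.05, and Col1a2, a collagen chain, at −0.58, −0.76 and −0.80. These 4 were named after their values were seen. Lepr, Kdr and Emcn also lay below WT on each of the other arrays. Lepr was at −0.36, −0.20 and −0.58 in the same order, Kdr at −0.28, −0.16 and −0.35, and Emcn at −0.14, −0.08 and −0.32. The remaining markers did not lie below WT throughout. Pdgfrb was at 0.15, 0.21 and 0.06 from WT in the same order, and Sparc at 0.13, −0.50 and 0.29. Col4a1 was at 0.11, 0.01 and −0.01, Pecam1 at −0.07, 0.16 and 0.05, and Tek at 0.03, 0.04 and −0.29. The stromal medians were −0.21 in Aspp1-/- against WT, where Ctgf passed 2-fold, and −0.18 and −0.34 for p53-/- and Aspp1-/-p53-/- against WT. All 12 megakaryocyte and platelet markers were above background on every array, with sums of 85.7, 77.9, 71.5 and 62.8 in the order WT, Aspp1-/-, p53-/- and Aspp1-/-p53-/-. Of 13 mature blood cell markers 10 were above background on at least 1 array, with sums of 65.6, 54.4, 61.0 and 26.7. The megakaryocyte order rested on Plek: without it the sums were 46.3, 43.9, 47.4 and 44.2. Without S100a8 the mature sums were 32.8, 28.2, 33.5 and 16.6, and without Kdr the stromal sums were 11.1, 10.5, 10.3 and 9.87. The part of these marker signals in the Ctgf, Cyr61 and F3 values was not tested.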

How the data were processed

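RNA of LSK cells was measured on 4 single-colour Agilent arrays, 1 per genotype. Per the file headers, spot intensity was extracted with Feature Extraction 10.7.3.1 (design 028005, mm9). The authors' deposited files hold a processed intensity, background-subtracted and not normalised between arrays, with, as other values, a 0 or 1 flag that marks each spot well above background or not. The authors' deposited value table holds log2 values centred per probe, and between arrays it gave the same differences as the scanner signals (r = 1 across 26465 probes). Its column medians were −0.0661, −0.0422, 0.0267 and 0.0478 for WT, Aspp1-/-, p53-/- and Aspp1-/-p53-/-. Its scale and centring were read from the values, and the authors' scaling of the arrays is not given in the sources.

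From these, 3671 control spots and 120 to 172 outlier spots per array were dropped, replicate spots were averaged by probe, and log2 signal was set relative to the array's 75th percentile (Python 3.11.15, numpy 2.4.6, pandas 2.3.3). The median SD between spots of a probe was 0.05. Names came from RefSeq by accession (26760 probes) or symbol (4457), and 24458 probes kept the name in the files. A gene was its brightest probe of those marked on at least 1 array as above background. The size rule was a log2 difference of 1. A dim side gave a bound against the higher of its own value and the array's lowest signal well above background. Where its own value was the higher, the bound was not a strict limit. The number of arrays limits the precision, as do scanner error and signal near background. The comparison step was tested on simulated data for differences measured on both arrays, and not for bounds.

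Genes were named by this rule: all members; the targeted genes; other Hippo and signature genes past 2-fold, up to 8 per list and comparison; Atf3, Egr1, Fos and Klf2; and the 3 genes nearest in pattern to the member with the widest range. Others, such as Ptpn14, Amotl2, Axl, Tead1, Stk38l and Map4k5, serve as examples of their role and were chosen after their values were seen, as was the division by role. The members and lists were chosen with earlier results of these data known. Alternatives were median scaling, a 75th percentile over probes above background on all arrays, quantile normalisation and normexp with offset 50 (limma 3.58.1 in R 4.3.3), a filter on dim probes, the mean of a gene's probes, the authors' table and, chosen after seeing the data, 1 floor for all arrays. Promoters were RefSeq's (GRCm38.p6).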

Additional observations from a re-analysis of the deposited data

How the results depend on the processing

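No paired analysis was possible because each genotype has 1 array. No member or named difference reversed among those called. Of 310 member differences under 8 alternatives, 300 stayed on their side of 2-fold. Those of the 300 under it moved by less than their scanner error, which is wide for dim probes. Wwtr1 in Aspp1-/- against WT counted as staying, though it went from 0.97 to 0.31 with normexp (error 1.07). The only member call, Ctgf in Aspp1-/- against WT, was lost (0 members) with normexp, with only probes above background on all 4 arrays, and with 1 floor for all arrays. The authors' table, which sets no floor, gave 2 members there (Ctgf and Wwtr1, the latter at 2.44), 1 in p53-/- against WT (Ctgf), 1 in Aspp1-/-p53-/- against WT (Ctgf) and 1 in Aspp1-/-p53-/- against Aspp1-/- (Wwtr1, −2.45). Median scaling moved the median of all genes to −0.11 in p53-/- against WT. The all-gene medians under this scaling were 0.074 in Aspp1-/-p53-/- against p53-/- and −0.087 in Aspp1-/-p53-/- against Aspp1-/-. The Hippo medians under it were −0.10 in p53-/- against WT, 0.081 in Aspp1-/-p53-/- against p53-/- and −0.068 in Aspp1-/-p53-/- against Aspp1-/-, and the signature medians −0.31, 0.0033 and −0.074. With normexp the signature medians were −0.028 for p53-/- and −0.023 for Aspp1-/-p53-/-, each against WT. Normexp also brought Cyr61 in Aspp1-/-p53-/- to −0.041 against WT and −0.12 against Aspp1-/-. Averaging a gene's probes gave Stk4 0.09 in both Aspp1-/- and Aspp1-/-p53-/- against WT, where the end probe was negative. All genes past 2-fold, in the order Aspp1-/-, p53-/- and Aspp1-/-p53-/- against WT, then Aspp1-/-p53-/- against p53-/- and against Aspp1-/-, numbered 753, 1115, 1279, 1224 and 1206. They were 223, 466, 515, 549 and 489 with normexp, 99, 207, 433, 270 and 301 above background on all arrays, and 438 in the first with 1 floor. The higher share of these in the first was 38.0%, and 55.2% with normexp. In the authors' table it was 58.1% against 70.3% in p53-/- against WT, 47.6% against 58.9% in Aspp1-/-p53-/- against WT and 50.7% against 65.4% in Aspp1-/-p53-/- against Aspp1-/-. The cause of these shifts was not tested, beyond the filter's smaller number of genes. Signal near background limits Ctgf, Cyr61, Ankrd1 and Wwtr1, whose levels below it have no order.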
